A study of Mus musculus with 12 samples.

Results

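The genes described here are those of the proteins of the cytosolic ribosome and their paralogs, chosen by symbol: Rps or Rpl followed by a number, and the stalk genes Rplp0 to Rplp2. A total of 59 such symbols had a probe set listing exactly 1 gene symbol, and 56 of them were among the 11923 genes tested, which were those with an intensity above 50 on at least 1 array. The 56 genes comprised 52 core genes, 19 of the small and 33 of the large subunit, and 4 paralogs, Rps4l, Rps27l, Rpl7l1 and Rpl32l. The remaining 3, Rpl10l, Rpl3l and Rpl39l, are paralogs that stayed below the intensity limit on every array, with intensities of 20.4 to 34.6 for Rpl10l, 11.4 to 15.0 for Rpl3l and 9.16 to 11.3 for Rpl39l, and were not tested. RefSeq lists 85 mouse symbols of the same pattern, and 26 of them had no probe set of exactly 1 symbol, so that they have no value here. Rps27 and Rpl32, the parent genes of Rps27l and Rpl32l, are among these 26.

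The arrays came from male C57BL/6J mice, a common inbred laboratory strain, that were 4 months (young) or 21 months (old) of age. After chow and a low-fat run-in, whose lengths the labels and the methods of the study give differently, each age group was kept for 2 weeks on a palm-oil-based low-fat diet with 10% of energy from fat or moved to the corresponding high-fat diet with 45%. RNA from scrapings of the proximal, middle and distal small intestine, taken in the postprandial state, was pooled over the 6 young or 8 old mice of a diet group and hybridized to 1 Affymetrix Mouse Gene 1.0 ST array per segment, giving 12 arrays from 4 pools of mice. Variation between single mice is therefore not visible, and the 3 arrays of a pool share animals.

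Ribosomes translate all cellular messenger RNA and are built from ribosomal RNA and one copy of most ribosomal proteins, in a small subunit that decodes the message and a large subunit that forms the peptide bond. Messages of ribosomal proteins begin with a C followed by a run of pyrimidines, the terminal oligopyrimidine (TOP) motif, through which mTOR signalling adjusts their translation together. The intestinal epithelium renews continuously from dividing crypt cells, and growing and dividing cells make many ribosomes. Several ribosomal proteins have paralogs, products of gene duplication or retrotransposition, whose expression differs between tissues more than that of the core genes.

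The common start of these messages was looked for in RefSeq sequence (GRCm38.p6), as a C at the annotated start followed by at least 4 bases that are each C or T. Of the 44 genes with an entry, 10 had such a start at an annotated position (22.7%), against 3.01% of 27025 genes with an entry and 3.03% of 9533 tested genes. Annotated starts are not always the places where transcription begins, and only a run at the annotated start itself was counted. A gene without it there may have such a run a few bases away or elsewhere. Windows of 30 bases, from 10 bases before the annotated start, are shown for genes described below, with the pyrimidine run from the annotated start in capitals. The first 5 are core genes with such a start, the sixth is the paralog Rpl32l, and the last 3 have none.
Rps6 (chr4:86857348-86857377, minus strand): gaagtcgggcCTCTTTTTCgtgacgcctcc
Rps15a (chr7:118116128-118116157, minus strand): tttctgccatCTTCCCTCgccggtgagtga
Rpl14 (chr9:120571507-120571536, plus strand): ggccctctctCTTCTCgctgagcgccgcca
Rpl28 (chr7:4792955-4792984, plus strand): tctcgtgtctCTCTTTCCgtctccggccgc
Rpl38 (chr11:114668570-114668599, plus strand): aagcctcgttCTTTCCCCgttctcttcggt
Rpl32l (chr10:20208429-20208458, plus strand): aaatgaccagCTTCTTCCTTggtgctgcct
Rps4x (chrX:102189372-102189401, minus strand): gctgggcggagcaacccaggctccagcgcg
Rplp0 (chr5:115559457-115559486, plus strand): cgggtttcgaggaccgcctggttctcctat
Rpl7l1 (chr17:46782637-46782666, minus strand): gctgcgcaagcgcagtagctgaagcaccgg

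Values are log2 intensities, and a gene is represented by its brightest probe set. Array medians over all probe sets lay between 5.57 and 5.70. Most of the 52 core genes were among the brightest genes: 38 had a mean level above the 90th percentile of the tested genes and 7 above the 99th. Others were dimmer, with percentiles of 8.33 for Rplp2, 25.3 for Rpl12, 41.4 for Rps15a, 45.85 for Rpl26 and 49.2 for Rpl14. No value of the 56 genes came closer than 1.47 to the maximum of its array. The tissue label was borne out by the 11 measured enterocyte genes, whose mean level was 12.33 to 13.06 on every array. Tests were made with limma on all 11923 genes, with the 2 diets taken as repeats of an age comparison, the 2 ages as repeats of a diet comparison and the 4 pools as repeats of a segment comparison. A gene is called when its Benjamini-Hochberg adjusted p is under 0.05, and differences are given on the log2 scale with their standard error (SE).

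Core ribosomal protein genes rose along the small intestine. From the proximal to the distal segment all 52 core genes were called higher, by 0.22 to 0.71 with a median of 0.51, where 29.0% of all tested genes were called higher and 28.7% lower, with a median of 0.02. The median level of the core genes was 10.82 to 10.87 on the 4 proximal arrays, 11.06 to 11.16 on the middle arrays and 11.21 to 11.34 on the distal arrays, so that the segments did not overlap. Each of the 52 genes was higher in the distal than in the proximal array in 4 of 4 pools, which held for 30.7% of all genes. Of the core genes, 50 had means in the order proximal, middle, distal, compared with 31.4% of all genes.

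The step from proximal to middle had the larger median difference over the 4 pools, but not in each pool: in the young low-fat pool the medians were 0.25 for this step and 0.26 for the next, and under quantile normalization of the tested genes the next step was the larger in both low-fat pools. From proximal to middle 47 of the 52 core genes were called higher and none lower, with a median of 0.31, against 16.0% of all genes called higher and 13.2% lower. The other 5, Rpl21, Rpl34, Rpl38, Rps14 and Rps25, had differences of 0.09 to 0.16. Without the middle array of the old low-fat or of the young high-fat pool, 26 of the 56 genes were called in this step. From middle to distal 30 core genes were called higher and none lower, with a median of 0.18, against 17.4% of all genes called higher and 22.1% lower. In such fits the mean of that segment rests on fewer arrays, so a count can fall through lost precision alone. Arrays joined by "or" here give the same fitted mean when left out, so they are not separate evidence. This second count fell in several such fits. Including paralogs it was 32 genes, and it fell to 3 without the middle array of the old high-fat or of the young low-fat pool, to 10 without that of the old low-fat or young high-fat pool, and to 14 without the distal array of the old low-fat or young high-fat pool.

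**Figure D1:**
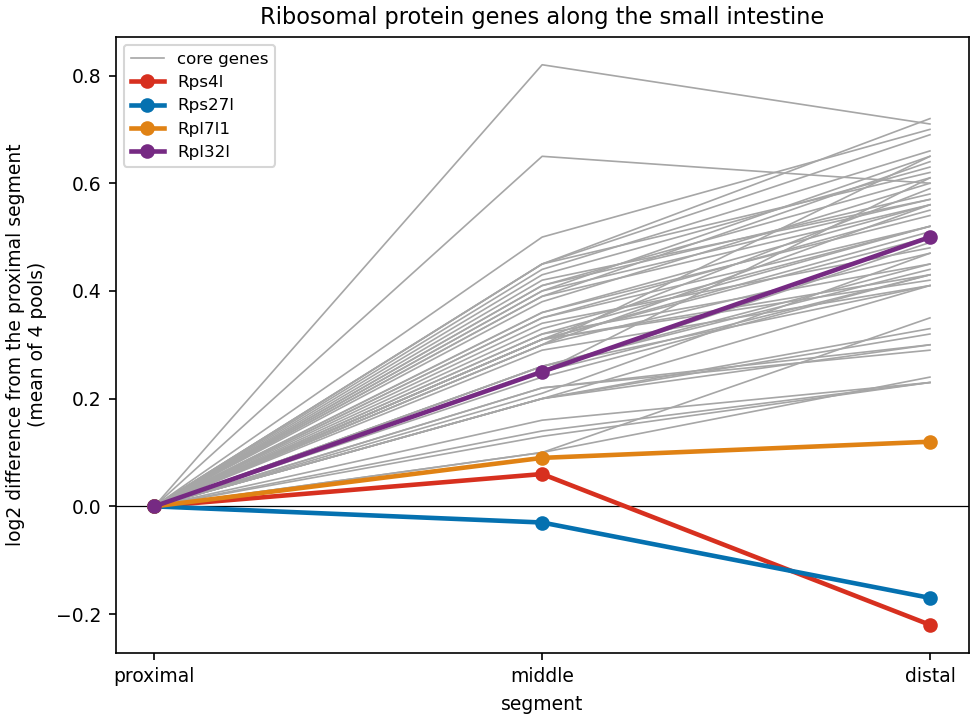
Mean log2 level of each gene over the 4 pools in the proximal, middle and distal segment, as the difference from its proximal mean (vertical axis), with the 52 core genes in grey and the 4 paralogs in colour. Every core gene ends above 0, between 0.22 and 0.71, Rpl32l runs among them, Rpl7l1 ends at 0.13, and Rps27l and Rps4l end below 0.

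Small subunit genes had a median distal minus proximal difference of 0.56 (19 of 19 called higher) and large subunit genes one of 0.50 (33 of 33). Rps15a, a small subunit protein, had the largest difference, 0.71 (SE 0.11, adjusted p = 0.000939). Its levels in the old low-fat, old high-fat, young low-fat and young high-fat pools were 6.76, 6.68, 6.66 and 6.80 in the proximal segment, 7.07, 7.34, 7.10 and 7.16 in the middle segment, and 7.66, 7.13, 7.40 and 7.55 in the distal segment. The proximal values lay below all others, while the distal value of the old high-fat pool fell within the range of the middle values. Rps12, another small subunit protein, followed with 0.69 (SE 0.05, adjusted p = 2.63e-05). Rps6, the small subunit protein phosphorylated by S6 kinase downstream of mTOR, had levels of 12.17 to 12.28 in the proximal, 12.41 to 12.45 in the middle and 12.48 to 12.60 in the distal segment, again without overlap. The smallest differences of this subunit were those of Rps25, needed for translation from some viral internal entry sites, with 0.23 (SE 0.05, adjusted p = 0.00804), and Rps14, whose loss marks the human 5q deletion syndrome, with 0.25 (SE 0.05, adjusted p = 0.00392).

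In the large subunit Rpl14 and Rpl13 had the largest differences, 0.71 (SE 0.09, adjusted p = 0.000367) and 0.70 (SE 0.05, adjusted p = 1.9e-05). Rpl14 was one of the 2 core genes that did not keep the order of the segments. In the same order of pools its levels were 6.84, 7.37, 6.80 and 6.78 in the proximal segment, 8.01, 7.67, 7.78 and 7.62 in the middle segment, and 7.65, 7.50, 7.82 and 7.67 in the distal segment. The old high-fat pool stood above the other proximal arrays, and middle and distal values overlapped. Rpl12, a protein at the base of the stalk, was the other exception, with means that differed by −0.05 between the distal and middle segments (adjusted p = 0.540). Rpl38, required for translation of Hox messages in the mouse embryo, had the smallest difference of all core genes, 0.22 (SE 0.05, adjusted p = 0.00814), followed by Rpl21, an early-binding protein of the large subunit, with 0.23 (SE 0.05, adjusted p = 0.00681).

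Rplp0, Rplp1 and Rplp2 form the stalk, which recruits elongation factors to the ribosome. The study showed Q-PCR of mouse genes for the colon, which is not among these arrays. The reference gene of that Q-PCR was Rplp0 (also known as 36B4). Its levels in the old low-fat, old high-fat, young low-fat and young high-fat pools were 11.83, 11.90, 11.94 and 12.03 in the proximal segment, 12.35, 12.36, 12.31 and 12.41 in the middle segment, and 12.65, 12.54, 12.56 and 12.58 in the distal segment. The segments did not overlap, and Rplp0 rose by 0.66 (SE 0.05, adjusted p = 3.63e-05) from proximal to distal. Old and young arrays differed by −0.11 proximally, −0.01 in the middle and 0.02 distally, with limma adjusted p of 0.788, 0.985 and 0.877. In the distal segment this was 0.09 in the low-fat and −0.04 in the high-fat pair. The other probe set of Rplp0, almost as bright, had 0.07 and −0.21 there, −0.03 and −0.14 proximally, and 0.04 and −0.02 in the middle. All 3 stalk genes were called higher in each of both steps and over the whole length, with a median of 0.65 from proximal to distal.

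Among the core genes, 37 had several probe sets on the array, up to 14 for Rps12, and 15 had 1. These copies can measure messages of near-identical pseudogenes as well as of the gene itself, which was not tested. All probe sets of a gene were higher in the distal segment for 36 of the 36 core genes with probe sets of different values. The median distal minus proximal difference was 0.57 for genes with 1 probe set and 0.47 for genes with several.

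The paralogs differed among themselves along the intestine. Rpl32l, a paralog of the large subunit gene Rpl32, moved like the core genes, with levels of 7.28 to 7.68 in the proximal, 7.64 to 7.70 in the middle and 7.82 to 7.98 in the distal segment. Proximal and middle values overlapped, the distal ones lay above both, and the distal minus proximal difference was 0.50 (SE 0.07, adjusted p = 0.000589). Rps27l, a paralog of Rps27 that p53 induces, went the other way. Its levels in the same order of pools were 9.53, 9.65, 9.51 and 9.45 in the proximal segment, 9.36, 9.73, 9.32 and 9.59 in the middle segment, and 9.32, 9.20, 9.39 and 9.53 in the distal segment. The segments overlapped, and the distal minus proximal difference of −0.18 (SE 0.06) passed narrowly, with an adjusted p of 0.0488. The call was lost with the pool as a fixed block (adjusted p = 0.145) and as a random block (adjusted p = 0.0543). Rpl7l1, a paralog of Rpl7 implicated in large subunit assembly, was measured between 8.84 and 9.11 on all 12 arrays and was not called, with a difference of 0.13 (SE 0.06, adjusted p = 0.0912), whereas its parent Rpl7 rose from 10.90 to 10.93 in the proximal segment to 11.30 to 11.45 in the distal segment. Within each pool the distal minus proximal difference of Rpl7l1 was smaller than that of Rpl7 in 4 of 4 pools, the 2 differing by −0.38 (young low-fat), −0.16 (young high-fat), −0.39 (old low-fat) and −0.40 (old high-fat), which was not tested.

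Other genes of protein synthesis were counted from lists of their own. Of all tested genes, 29.0% were called higher and 28.7% lower from the proximal to the distal segment. Ribosomal proteins outside the symbol pattern included Rpsa, which rose by 0.68 (SE 0.06, adjusted p = 4.34e-05), Rps3a1, which rose by 0.55 (SE 0.08, adjusted p = 0.000594), and Fau, which had −0.10 (adjusted p = 0.139). Of 18 elongation factors and other TOP messages, 15 were called higher in the distal than in the proximal segment and 1 lower, with a median of 0.29, and Eef1b2, an exchange factor for elongation factor 1A, rose by 0.69 and the nucleolar chaperone Npm1 by 0.66. Of 23 initiation factors, 15 were called higher and 2 lower, with a median of 0.21, led by Eif2s2 with 0.66 and Eif2b3 with 0.57. Of 42 genes of ribosome assembly and RNA polymerase I, 34 were called higher and 3 lower, with a median of 0.47, and the growth regulator Myc rose by 1.26 and the processing factor Utp20 by 1.05.

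Ribosomal proteins of the mitochondrion did not follow this pattern. Of 77 measured, 6 were called higher and 27 lower in the distal segment, against 29.0% and 28.7% of all tested genes. Their median was −0.08, and Mrps36 and Mrps33 fell by 0.68 and 0.65. The same shares of all genes stand beside the lists that follow. Of 13 genes of mTOR signalling and the control of TOP translation, 4 were called higher and 2 lower, with a median of 0.01. The highest of these were the S6 kinase family member Rps6ka3 with 0.50 and the translation repressor Eif4ebp1 with 0.44. Of 7 p53 targets, none was called higher and 3 lower, with a median of −0.11, including the p53 ligase Mdm2, which fell by 0.69, and the kinase Plk2, which fell by 0.56.

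Markers of several cell types moved along the same axis, and in scrapings fewer cells of a type and less RNA per cell cannot be told apart. The counts below stand against 29.0% of all tested genes called higher and 28.7% lower from proximal to distal. The mean level of 12 genes of crypt and proliferating cells was 7.38 to 7.48 on the proximal, 7.88 to 8.07 on the middle and 7.88 to 8.31 on the distal arrays, and 11 of the 12 were called higher and 1 lower from proximal to distal, with Olfm4 rising by 1.16 and Mki67 by 1.15. The 11 enterocyte genes had a mean of 13.05 to 13.06 on the proximal and 12.33 to 12.78 on the distal arrays, with 2 called higher and 7 lower, and Fabp1 fell by 1.49 and Alpi by 1.47. All 10 smooth muscle genes, led by Myh11 (2.17) and Acta2 (1.88), and 7 of 8 B cell genes, led by Ms4a1 (1.53) and Cr2 (1.47), were called higher in the distal segment. Of 8 fibroblast and matrix genes, 4 were called higher and 1 lower, of 7 T cell genes none higher and 4 lower, and of 10 myeloid genes 1 higher and 8 lower. The part of these cell types in the course of the ribosomal protein genes was not tested.

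A single one of the 56 genes was called between old and young mice. Rps4l, an S4-like gene that RefSeq lists as a transcribed pseudogene of 941 bases on chromosome 6 (chr6:148354656-148355596, GRCm38.p6, older symbol Rps4y2), was lower in old mice in every segment, whichever diet they had. In the old low-fat, old high-fat, young low-fat and young high-fat pools its levels were 6.97, 6.66, 8.09 and 7.89 in the proximal segment, 6.70, 6.68, 8.32 and 8.14 in the middle segment, and 6.19, 6.55, 7.93 and 8.04 in the distal segment. The 6 old arrays, from 6.19 to 6.97, all lay below the 6 young arrays, from 7.89 to 8.32. With limma the proximal difference was −1.18 (adjusted p = 0.0133), the middle one −1.54 (adjusted p = 0.00387) and the distal one −1.61 (adjusted p = 0.00278), each with an SE of 0.09. Of all tested genes 0.0839%, 0.00839% and 0.470% were called lower with age in these segments. Over the means of the 4 pools it fell by 1.44 (SE 0.05, adjusted p = 0.000437), where 2.13% of all genes were called lower, and this was the lowest age difference of the 11923 genes, followed by −1.34 for the immunoglobulin gene Igkv19-93. Leaving out the distal segment gave −1.36 (adjusted p = 0.000893). The proximal call was lost whichever of the 12 arrays was left out, with fitted differences of −1.23 to −1.13. Without a middle or distal array the proximal difference stayed at −1.18, so those losses did not come with a smaller difference. The middle call was lost without the middle array of the old high-fat or of the young high-fat pool. Either fit takes this difference from the low-fat pair alone. Both therefore gave the same −1.62, with a larger SE than the full fit, and are not separate evidence.

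**Figure D2:**
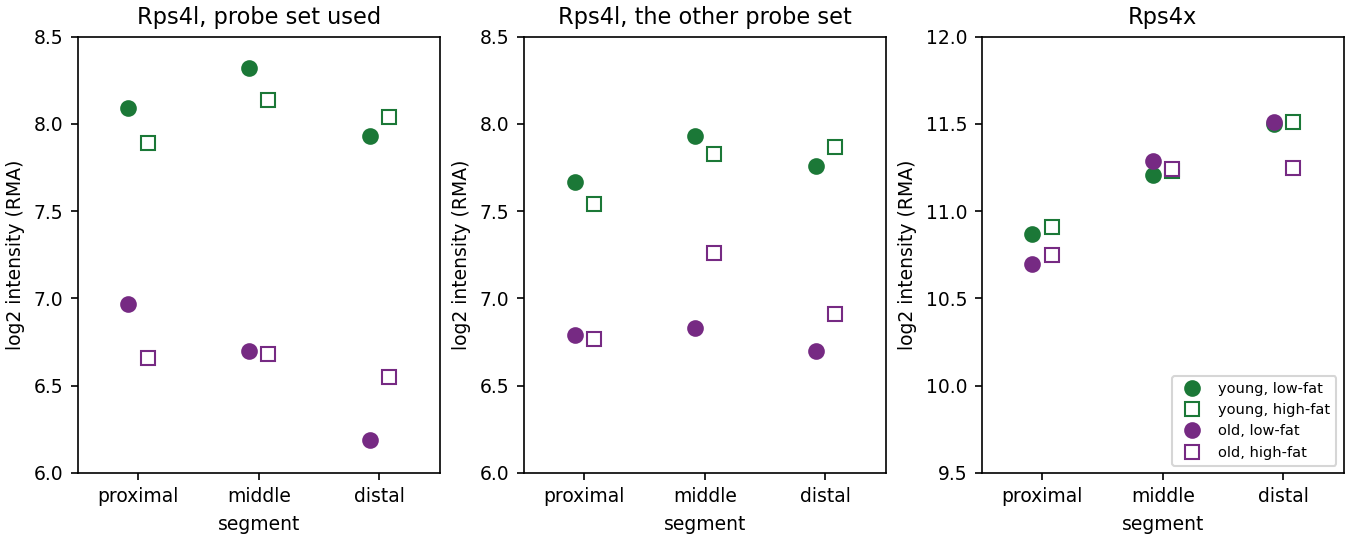
Log2 intensity on each of the 12 arrays (vertical axis; the axes of both Rps4l panels are the same and that of Rps4x spans an equal range at a higher level) by segment, for the 2 probe sets of Rps4l and for Rps4x, with age in colour and diet as filled or open symbols. The old arrays of Rps4l, from 6.19 to 6.97 in the first panel, lie below the young ones in both Rps4l panels, while those of Rps4x lie below the young ones in the proximal segment, just above them in the middle segment and overlap with them in the distal segment.

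Rps4l has 2 probe sets. The dimmer one also separated the ages without overlap, with levels of 6.70 to 7.26 on the old and 7.54 to 7.93 on the young arrays. Its age differences were smaller, −0.82 in the proximal segment (limma adjusted p = 0.0987), −0.84 in the middle segment (adjusted p = 0.137) and −1.01 in the distal segment (adjusted p = 0.0322), with −0.89 over the pool means (adjusted p = 0.00354). Along the intestine the 2 probe sets disagreed: the brighter one gave a distal minus proximal difference of −0.22 (SE 0.06, adjusted p = 0.0176) and the dimmer one 0.12 (adjusted p = 0.288). With the pool as a fixed block the brighter one was not called either (adjusted p = 0.139), nor was its distal minus middle difference of −0.28 (adjusted p = 0.0943, against 0.0114 without the block).

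Rps4x, the X-linked gene of the small subunit protein S4 and parent of Rps4l, did not show this age difference. Its levels in the same order of pools were 10.70, 10.75, 10.87 and 10.91 in the proximal segment, 11.29, 11.24, 11.21 and 11.23 in the middle segment, and 11.51, 11.25, 11.50 and 11.51 in the distal segment. The old arrays lay below the young ones in the proximal segment, just above them in the middle segment and overlapped with them in the distal segment, and the age difference over the pool means was −0.08 (SE 0.05, adjusted p = 0.446). The age difference of Rps4l lay below that of Rps4x in all 6 pairs of old and young arrays, the 2 differing by −0.95 (low-fat) and −1.07 (high-fat) in the proximal segment, −1.69 and −1.47 in the middle segment, and −1.75 and −1.22 in the distal segment. Whether the probes of Rps4l also bind messages of other S4 genes was not tested.

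With the brighter probe set the fall of Rps4l was over 2-fold in each of these 6 pairs, and with the dimmer one in 2 of the 6, where it ranged from −1.11 to −0.57. No other of the 56 genes reached 2-fold in a comparison of age or diet. The share of all genes over 2-fold lower with age, first low-fat and then high-fat, was 0.185% and 0.159% proximally, 0.0503% and 0.117% in the middle, and 0.151% and 0.520% distally. Between segments the age difference of Rps4l was lower in the distal than in the proximal segment by −0.44 (SE 0.13, adjusted p = 0.529), and limma called none of all genes for this difference (0.00%). At an unadjusted p under 0.05 there were 1053 genes (8.83%), among them Rps4l and Rpl14 of the 56. Between the middle and proximal segments 0.0252% of all genes were called and none of the 56. Rps4l passed the unadjusted threshold of 0.05 there, as did 4.97% of the tested genes. Between the distal and middle segments 0.00% of all genes were called. None of the 56 passed the unadjusted threshold for that difference, although 11.6% of the tested genes did.

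The 52 core genes had age differences between −0.14 and 0.10 over the pool means. None was called by limma, and Rpl12 was the only core gene with an unadjusted p under 0.05, with −0.14 (SE 0.05, adjusted p = 0.240), where 17.8% of all genes were under that threshold. After Rpl12 the lowest were Rpl8 and Rps21 with −0.09 each, and Rps4x and Rpl28 with −0.08 each. The highest were Rpl14 and Rpl26, a protein that also binds p53 messenger RNA, with 0.10 each, Rpl22, known for its role in T cell development, and Rpl36a with 0.05 each, and Rpl5, which carries the 5S ribosomal RNA into the large subunit, with 0.04. These 9 had adjusted p of 0.344 to 0.719. For 24 of the 36 core genes with probe sets of different values, all probe sets had an age difference of the same sign. Within segments the core genes with an unadjusted p under 0.05 were Rpl14 with 0.32 and Rpl28 with −0.18, both in the proximal segment, where 1032 of all genes were under it, against 1049 for the middle and 2262 for the distal segment.

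**Figure D3:**
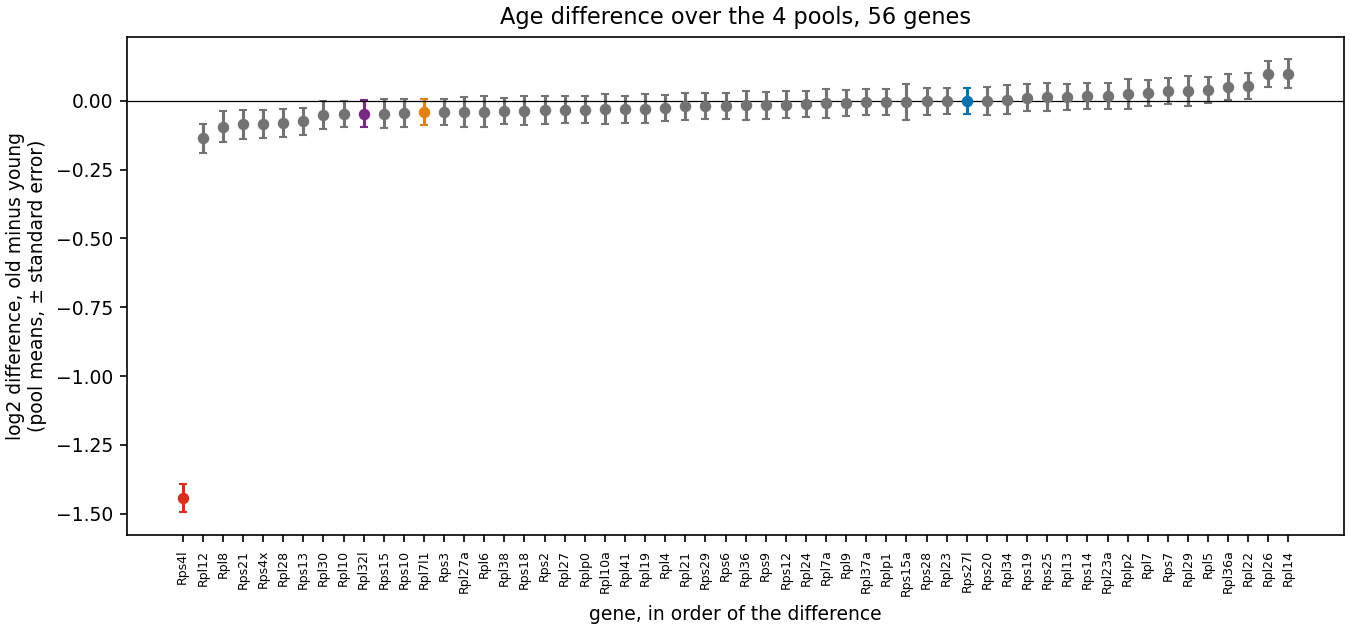
Log2 difference of old minus young over the means of the 4 pools (vertical axis, points with standard error) for the 56 genes in order of size, with paralogs in colour and core genes in grey. Rps4l stands at −1.44, and all other genes lie between −0.14 and 0.10.

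The other paralogs were near 0 with age over the pool means, with −0.001 for Rps27l, −0.04 for Rpl7l1 and −0.05 for Rpl32l, and none was called. Rps27l had −0.06 (low-fat) and −0.33 (high-fat) in the distal segment, and 0.02 to 0.19 in the other 4 pairs. Among the other lists over the pool means none of 77 mitochondrial ribosomal proteins was called, and of the TOP messages Vim was called lower (−0.31, adjusted p = 0.0388). Of the genes of ribosome assembly and RNA polymerase I, Taf1d, a subunit of the polymerase I selectivity factor, was called higher (0.35, adjusted p = 0.0412). Beside these, 8 of 10 smooth muscle genes and 8 of 8 fibroblast and matrix genes were called lower in old mice, as were 1 of 8 B cell genes (Bank1, −0.32) and 2 of 10 myeloid genes (Itgax, −0.31, and Csf1r, −0.29). Over the pool means 2.13% of all tested genes were called lower and 0.755% higher. The part of these cell types in the age difference of Rps4l was not tested.

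The core genes shifted slightly between single pairs of arrays. Their median age difference, first for the low-fat pair and then for the high-fat pair, was −0.04 and −0.05 proximally, 0.05 and 0.02 in the middle, and 0.03 and −0.11 distally, with the sign turning under median centring in the proximal low-fat pair (0.004) and, under median centring and quantile normalization, in the middle high-fat pair (−0.02 and −0.01). In the distal high-fat pair 44 of the 52 were lower in the old pool, with Rps21, a small subunit protein, lowest at −0.43.

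Diet called none of the 56 genes. The share of all genes called by limma was 0.319% for the proximal segment, 2.54% for the middle one, 0.528% for the distal one and 5.67% over the pool means. At an unadjusted p under 0.05 there were 2 of the 56 in the proximal segment, Rplp2 with 0.43 and Rps4l with −0.25, and 1 in the middle segment, Rps27l with 0.31 (adjusted p = 0.134). In the distal segment there were 4, Rpl12 with −0.45 (adjusted p = 0.0695), Rpl22 with −0.34, the large subunit gene Rpl36 with −0.20, and Rps4l with 0.24. Over the pool means there were 4, Rpl12 with −0.15, Rpl22 with −0.12, Rplp2 with 0.16 and Rps27l with 0.12. Of all genes, 10.8%, 18.0%, 17.5% and 23.3% were under this threshold in the proximal, middle and distal segments and over the pool means.

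Rpl12 in the distal segment was 6.71 and 6.84 in the old and young low-fat pools and 6.23 and 6.43 in the high-fat pools, so that the diets did not overlap there. Rps27l in the middle segment was 9.36 and 9.32 in the low-fat pools and 9.73 and 9.59 in the high-fat pools, again without overlap. Both genes had an unadjusted p under 0.05 by limma in these same values, so the lack of overlap is not separate evidence. Rplp2 lies near the intensity limit, with levels of 5.07 to 6.11. With an intensity trend and robust prior in limma, Rps27l passed in the middle segment, and Rpl12 and Rpl22 passed in the distal segment. For the difference of the diet effect between segments, none of the 56 was called by limma, where 0.0252% of all genes were called for middle against proximal, 0.0503% for distal against proximal and 0.0755% for distal against middle.

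**Figure D4:**
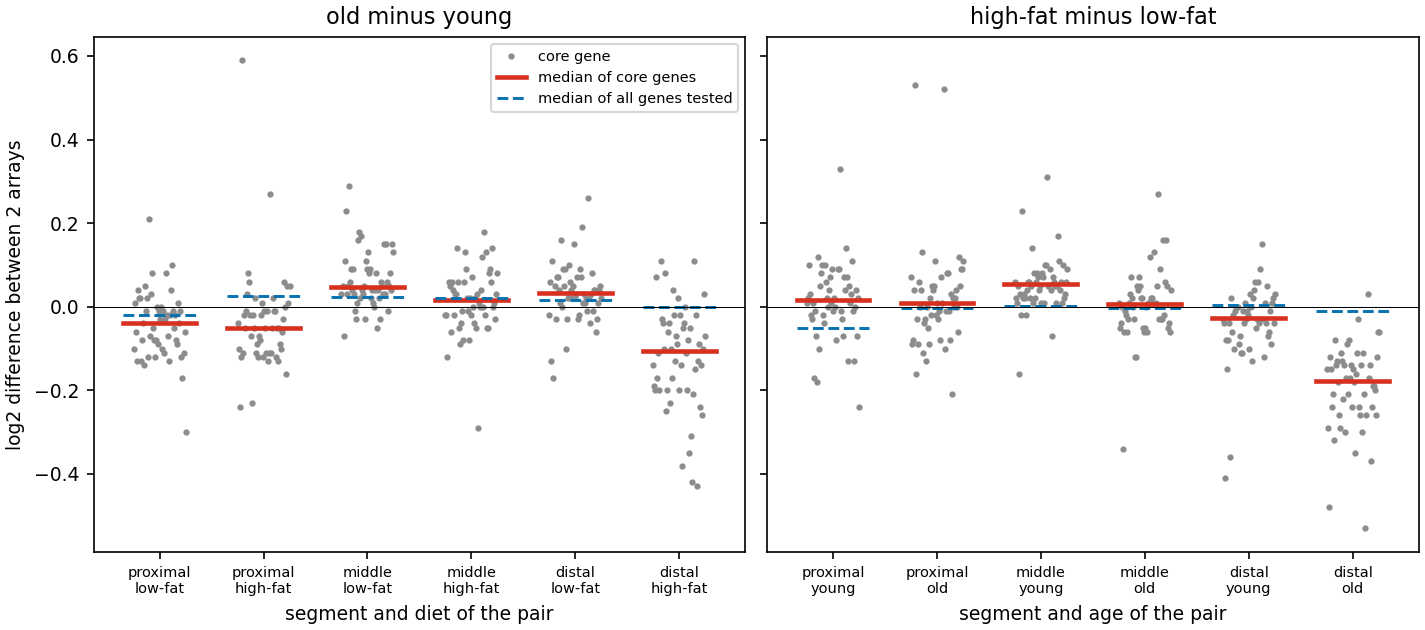
Log2 differences between 2 arrays (vertical axis) of the 52 core genes (points), with their median (red bar) and the median of all tested genes (dashed bar), for old minus young in 6 pairs and high-fat minus low-fat in 6 pairs. On the deposited scale the core genes shift furthest in the pairs that hold the distal array of the old high-fat pool, with medians of −0.11 for age and −0.18 for diet; under median centring the age median, −0.07, is smaller in size than that of the proximal high-fat pair, −0.09.

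The largest shift with diet was in the distal segment of old mice, where high-fat feeding went with lower levels of 51 of the 52 core genes, with a median of −0.18 against −0.01 for all genes, and Rps15a was lowest with −0.53. In young mice the distal median was −0.03, with 37 of 52 lower. In the middle segment 48 of 52 were higher on the high-fat diet in young mice, with a median of 0.05, and 30 of 52 in old mice, with a median of 0.01 that turned to −0.01 under quantile normalization. The proximal median was 0.02 in young mice (0.085 under median centring and 0.058 under quantile normalization) and 0.01 in old mice, the latter turning to −0.01 under median centring.

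The distal array of the old high-fat pool enters both the distal age and the distal diet pair, and it stood apart in other genes as well. Its core median was 11.21, against 11.25 to 11.34 on the other distal arrays, and its step from the middle array of the same pool was 0.03 with 34 of 52 genes higher, against 0.17 to 0.26 in the other 3 pools. This step was 0.10 under median centring, against 0.17 to 0.26, and 0.19 under quantile normalization, against 0.28 to 0.38. On this array the mean of the crypt and proliferation genes was 7.88, against 8.22 to 8.31 on the other distal arrays, and the mean of the ribosome assembly genes was 7.69, against 7.91 to 7.94. Smooth muscle genes had a mean of 7.05 against 7.59 to 8.35, fibroblast and matrix genes 6.66 against 7.47 to 7.97, and B cell genes 5.58 against 6.24 to 6.37, while enterocyte genes had a mean of 12.78 against 12.33 to 12.62. The part of these cell types in the shift of the core genes was not tested. Without this array the distal call of Rps4l held, with −1.74 (SE 0.11, adjusted p = 0.0414), and 53 to 54 of the 56 genes were called higher or lower from proximal to distal whichever array was left out.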

How the data were processed

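Total RNA was pooled per group and hybridized to Affymetrix Mouse Gene 1.0 ST arrays. Before deposition the authors turned the scans into log2 intensities by Robust Multi-array Average (RMA; version not given in the sources used here) over the small intestine arrays, with quantile normalization across arrays, which removes shifts of the whole array. Of 35556 deposited probe sets, 21789 carry exactly 1 gene symbol in the platform annotation, which gave 19938 genes, and the brightest probe set by its mean stood for a gene. As in the methods of the study, genes had to exceed an intensity of 50 on at least 1 array, and pancreas genes (here a list of acinar genes) were removed, leaving 11923. All 59 symbols matched RefSeq by Entrez ID.

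limma 3.58.1 in R 4.3.3 was fitted to the 12 arrays (a level, an age term and a diet term for each segment, residual degrees of freedom 3) and, for pool means, to 4 averages over the segments (residual degrees of freedom 1), and was tested on simulated data. Any age by diet interaction enters the error. A group has 1 array, so that p-values rest on the spread between pairs, and the number of arrays limits precision. Genes were named by fixed rules: paralogs with their parents, called genes, the 5 highest and lowest core genes for age and the 4 for segment, the 2 largest of each other list, and Rplp0. Rps6, Rpl34, Rpl36, Rplp1 and Rplp2 were named beyond these rules, after their values were seen. Members and lists were chosen with earlier results of these data known. Alternatives covered the filters, normalization, probe sets, prior, pool terms, and each array or segment left out. Tables were made in Python 3.11.15 with pandas 2.3.3 and numpy 2.4.6.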

Additional observations from a re-analysis of the deposited data

Results flagged for a closer look

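The median difference of the 52 core genes pointed one way in both pairs of one segment and the opposite way in both pairs of another in 3 cases. For age, the mean of the 2 pair medians was higher in the middle than in the proximal segment by 0.078, a direction that single pairs do not keep under other scalings, as given above. For high-fat against low-fat diet, the mean of the 2 pair medians in the distal segment was lower than in the proximal segment (difference −0.113) and than in the middle segment (difference −0.132). On the deposited scale both rest mainly on the distal array of the old high-fat pool. Under median centring the young pairs, which do not hold that array, had medians of 0.085 proximally, 0.05 in the middle and −0.027 distally. The old pairs then had −0.008, 0.004 and −0.119. These differences of medians were not tested. By limma no single gene of the 56 was called for a diet effect that differed between segments. At an unadjusted p under 0.05 there were 4 of the 56 for distal against proximal (9.51% of all genes) and 4 for distal against middle (13.3% of all genes).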

How the results depend on the processing

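From middle to distal, 32 of the 56 genes were called, against 17 with no intensity filter and 50 with quantile normalization of the tested genes. An intensity trend with a robust prior called 1 gene with diet in the middle segment (Rps27l, 0.31) and 2 in the distal segment (Rpl12, −0.45, and Rpl22, −0.34), against 0. Rplp2 was the 1 gene called with diet over pool means without the distal segment (0.29, adjusted p = 0.0492), against 0. With the proximal arrays alone, 0 genes were called for age there, since Rps4l had −1.18 with an adjusted p of 0.162. With its other probe set, a choice made after seeing the data, Rps4l was not called for age in the proximal (−0.82) and middle (−0.84) segments. The median age difference of Rps4l minus Rps4x over 6 pairs was −1.35, and −1.02 with the mean of all probe sets. Over pool means without the distal segment the age difference turned to 0.10 for Rps27l and 0.0094 for Rpl7l1, neither called. The cause was not tested.

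With each of the 12 arrays left out in turn, the number of genes called was 0 to 0 for age in the proximal, 0 to 1 in the middle and 1 to 1 in the distal segment, with Rps4l at −1.23 to −1.13, −1.62 to −1.46 and −1.74 to −1.48. It was 26 to 49 from proximal to middle, 3 to 30 from middle to distal and 53 to 54 from proximal to distal. It was 0 for diet in each segment. In these fits an arm can hold 1 array, whose spread is taken from the others. Groups of 1 array share no replicate numbers, but the segments are paired by pool. With the pool as a fixed block, 47 genes were called from proximal to middle, 29 from middle to distal and 53 from proximal to distal, and the distal minus proximal calls of Rps4l (adjusted p = 0.139) and Rps27l (adjusted p = 0.145) were lost. The correlation within pools was −0.08, and a random block changed no age call of Rps4l within segments. Such a comparison holds 1 array of each pool, so the block could hardly change it. The 4 pools and the residual degrees of freedom, 3 and 1, limit all tests.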
